A study of Drosophila melanogaster with 13 samples.

Results

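The ChIP-Seq peaks described here lie at the centromere-proximal ends of 3 chromosome arms of Drosophila melanogaster. They were chosen by position alone, in BDGP release 5 coordinates. A peak was a member if its midpoint lay at or beyond position 20000000 on 2L, at or beyond position 22000000 on 3L, or before position 1000000 on 3R. The numbering of 2L and 3L runs toward the centromere and that of 3R runs away from it. The peak lists hold no centromere position, so the name of these regions rests on the numbering and was not checked against a mark of the centromere. Of 34149 peaks in the 6 lists called at a q-value of 1e-10 (the stringent lists), 1320 were members. Of 59671 peaks in the 6 lists called at 1e-2 (the relaxed lists), 2730 were members. A place called in several lists counts in each of these totals.

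The study expressed Hox proteins fused to GFP in Kc167 cells, an established line derived from female late embryos, and mapped their binding with an anti-GFP antibody. The proteins were made transiently from an inducible promoter, and cells in a matched range of GFP fluorescence were sorted, so every library comes from cells that carry a tagged transgene. Experiment 1 comprised Abd-A, Abd-B and Ubx, with 2 replicates for each, and 2 samples of input chromatin. Experiment 2 holds Ubx with 1 replicate, and 2 replicates each of mutant Ubx and of Ubx + Hth. Mutant Ubx carries substitutions in the homeodomain residues that contact DNA. Ubx + Hth was made with Hth from a bicistronic vector, in cells that otherwise lack Hth and keep its partner Exd in the cytoplasm.

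Hox proteins are homeodomain transcription factors that give body segments their identity, and Exd and Hth are cofactors that bind DNA with them. The ends of the arms next to the centromeres pass into pericentric heterochromatin, which is rich in repeated sequence, poor in genes and marked by HP1 and by methylation of histone H3 at lysine 9. Repeats limit where a short read can be placed, and only uniquely mapped reads entered these lists.

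The replicates of a condition were combined before peaks were called, which leaves 1 list per condition and q-value and no replicate error. No test was possible, and the intervals given below are 95% intervals that cover the counting of peaks only. The lists hold no read counts, so the depth behind a peak cannot be read from them, but the study's read totals were several times larger for mutant Ubx and Ubx + Hth than for the other conditions. Reads were 36 bp long in Experiment 1 and 100 bp in Experiment 2, the experiments used different sequencing instruments, and every list was called against the input of Experiment 1. An effect of the protein and an effect of the experiment therefore cannot be told apart where lists of the 2 experiments are compared. Ubx is the condition that was assayed in both.

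Stringent peaks were sparser in the centromere-proximal regions than in the rest of 2L, 3L and 3R in 5 of the 6 lists, by more than the counting intervals. The regions span 6.54 Mb, or 8.67% of the 3 arms up to the last peak, and the rest spans 68.9 Mb. Ubx of Experiment 1 had 173 members, or 26.4 peaks per Mb (exact Poisson interval 22.6 to 30.7), beside 39.6 per Mb in the rest. Abd-A had 217 members, at 33.2 per Mb against 46.5. Abd-B, with the longest list, had 353 members, at 54.0 per Mb (48.5 to 59.9) against 82.9 (80.8 to 85.1). For these 3 lists of Experiment 1 the density in the members was 0.651 to 0.713 of that in the rest.

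In Experiment 2 the same held for Ubx and Ubx + Hth, while mutant Ubx differed by less than its interval. Ubx of Experiment 2 had 158 members, at 24.1 per Mb against 34.7 in the rest, a ratio of 0.695 (interval 0.588 to 0.817). Ubx + Hth had 339 members, at 51.8 per Mb against 66.3, a ratio of 0.782 (0.698 to 0.873). Mutant Ubx had 80 members, at 12.2 per Mb (9.70 to 15.2) against 13.8 (12.9 to 14.7). Its ratio of 0.888 had an interval of 0.698 to 1.12, which includes equal density.

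The relaxed lists separated mutant Ubx from the other conditions. With 574 relaxed members, mutant Ubx had 87.8 peaks per Mb (80.7 to 95.2) in the centromere-proximal regions and 75.3 (73.2 to 77.3) in the rest, a ratio of 1.17 (1.07 to 1.27). The other 5 relaxed lists had 349 to 553 members and ratios between 0.716 and 0.873. The mutant protein had the fewest members of any list at the stringent q-value, where its whole list was also the shortest, and the most at the relaxed one. As a share of the whole list, its members were the most frequent at both q-values, with 80 of 1793 stringent and 574 of 9346 relaxed peaks. Ubx + Hth came next, with 339 of 7971 and 553 of 11698. The low stringent count of mutant members thus went with the length of the list.

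**Figure D1:**
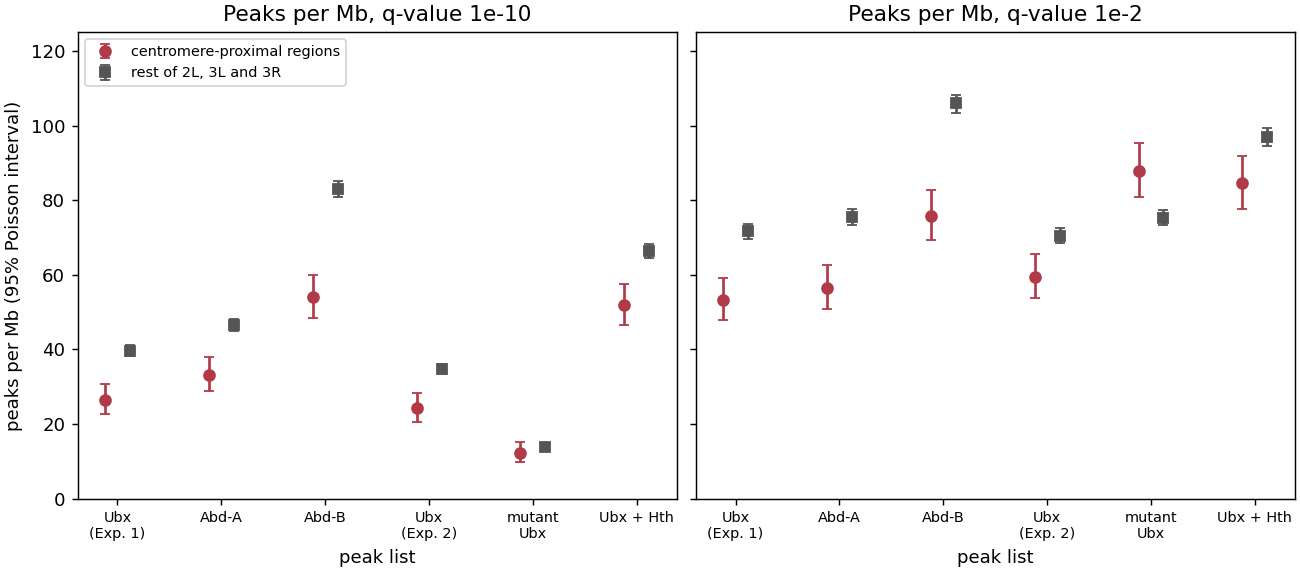
Peaks per Mb (vertical axis) in each list, in the centromere-proximal regions (circles) and in the rest of 2L, 3L and 3R (squares), for the stringent (left) and relaxed (right) lists; bars are exact Poisson 95% intervals. The circles lie below the squares in every list except relaxed mutant Ubx, where 87.8 stands above 75.3, and the bars of stringent mutant Ubx overlap.

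The lower density came mainly from 3L. Across the 6 stringent lists the ratio of members to rest ran from 0.395 for Ubx of Experiment 1 to 0.774 for mutant Ubx on 3L, from 0.785 to 0.958 on 2L, and from 0.942 to 1.32 on 3R. On 3R every one of these intervals included 1, so no lower density was detectable there. On 2L the interval excluded 1 for Abd-B alone (0.669 to 0.917). In the relaxed lists, the mutant Ubx ratio was 1.44 (1.26 to 1.64) on 2L, 1.60 (1.33 to 1.90) on 3R and 0.837 (0.708 to 0.984) on 3L. The other relaxed lists had ratios of 0.856 to 1.06 on 2L and 0.961 to 1.12 on 3R. Of their intervals on these arms, only that of Abd-B on 2L excluded 1. On 3L every ratio was below 1 at both q-values, with an interval that included 1 for stringent mutant Ubx.

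Along 3L the stringent counts of Ubx of Experiment 1 and of Abd-B were lower from 1 Mb inside the boundary onward. In successive bins of 500 kb from the boundary toward the centromere, Ubx of Experiment 1 had 14, 18, 4, 2 and 1 peaks and Abd-B had 24, 34, 14, 14 and 6. Mutant Ubx had 4, 12, 4, 3 and 4, beside 4 to 11 in the 8 bins outside the boundary, so the counts of 12 and 3 lay just outside that range. On 2L the 6 bins held 15, 19, 20, 11, 17 and 9 peaks of Ubx of Experiment 1 and 31, 35, 38, 26, 35 and 15 of Abd-B. For both lists the bin nearest the 2L centromere held the fewest peaks, while the bins before it were mixed.

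The boundaries fall in gaps between peaks. On 2L the nearest member of every list except mutant Ubx lay 61.2 to 61.3 kb inside the boundary, and the nearest peak outside lay 41.3 to 67.2 kb away. For mutant Ubx these distances were 762 kb and 112 kb. On 3R the nearest members lay 46.2 to 47.2 kb inside in all 6 lists.

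**Figure D2:**
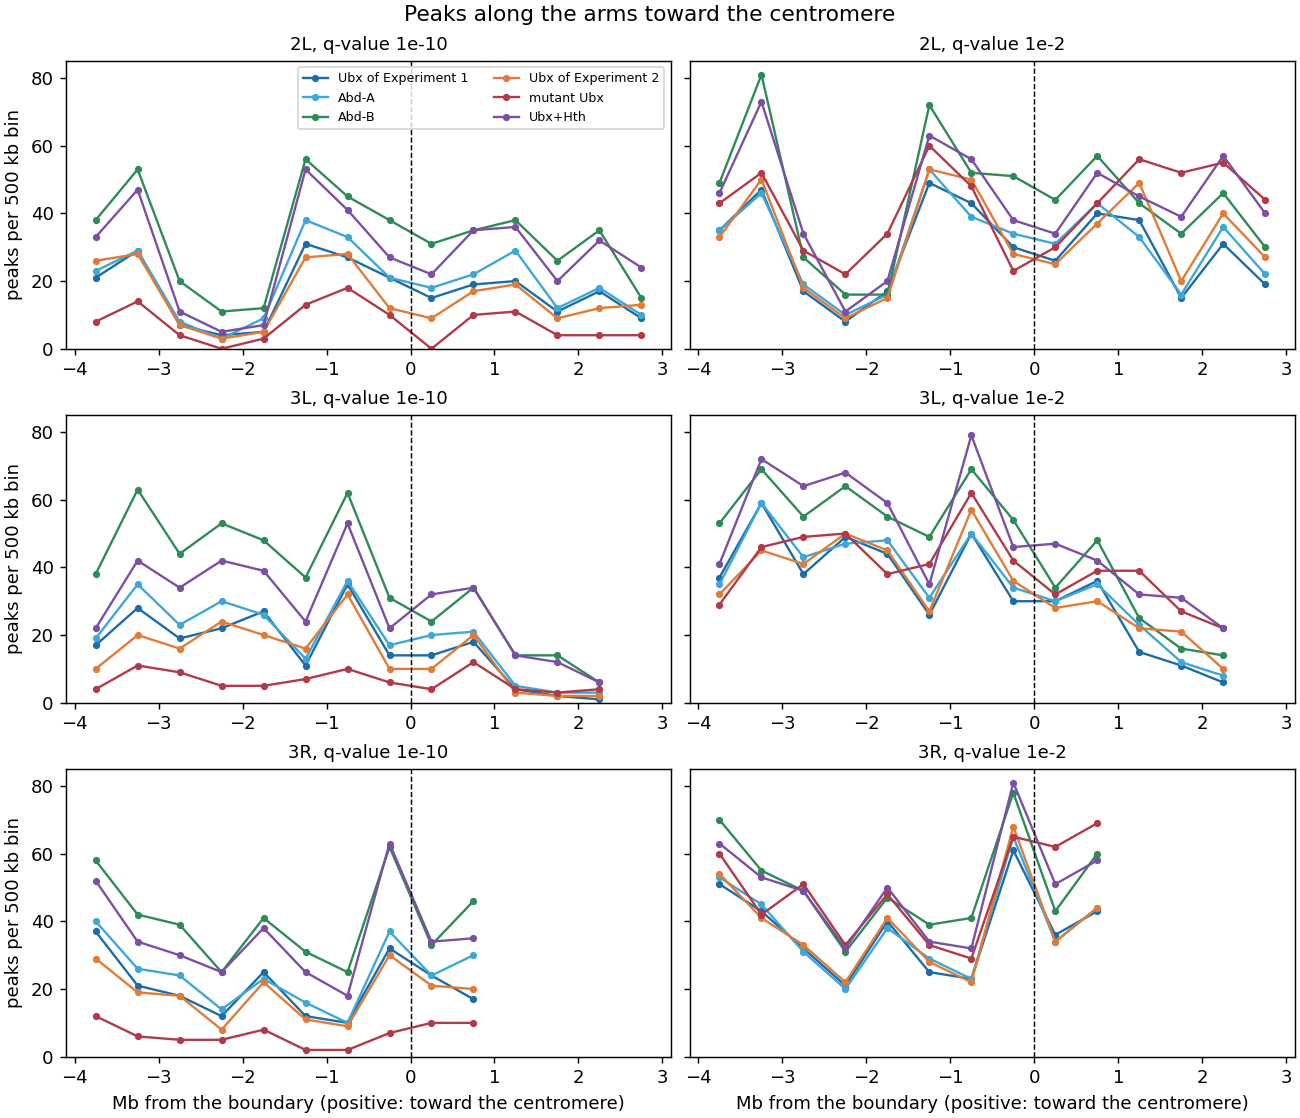
Peaks per bin of 500 kb (vertical axis) against the distance in Mb from the boundary of each region (horizontal axis, positive toward the centromere, dashed line at the boundary), 1 line per list, stringent on the left and relaxed on the right; incomplete bins at the arm ends are not drawn. On 3L the stringent counts of Ubx of Experiment 1 go from 18 to 4 to 2 to 1 over the last 4 complete bins, and on 2L and 3R mutant Ubx is the highest line in the relaxed bin nearest the centromere.

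Neighbouring members lay farther apart than neighbouring peaks elsewhere for the wild type proteins. The median gap was 14.2 kb in the members and 8.72 kb in the rest for Ubx of Experiment 1, 6.28 and 4.66 kb for Abd-B, and 15.6 and 9.48 kb for Ubx of Experiment 2. For mutant Ubx it was 24.9 and 25.6 kb. Stringent peaks covered 1.48% of the member length and 2.58% of the rest for Ubx of Experiment 1, and 0.516% and 0.507% for mutant Ubx. The share of sequence under peaks thus differed between the parts of the arms for wild type Ubx and by little for the mutant.

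Stringent member peaks had widths much like those of other peaks, with fewer wide ones for wild type Ubx of Experiment 1. The median width of its members was 465 bp, in a range of 241 to 1706 bp, beside 496 bp in the rest. Of its members 14, or 8.09% (Wilson interval 4.88 to 13.1), were at least 1000 bp wide, beside 15.8% (14.5 to 17.2) in the rest. In its relaxed list these shares were 23.8% (19.6 to 28.5) and 26.85% (25.6 to 28.1), with intervals that overlap. In the other 5 stringent lists the intervals of this share overlapped between members and rest, and the member medians ran from 317 bp for mutant Ubx to 642 bp for Abd-B.

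The widest stringent member differed between conditions. For mutant Ubx it spanned 4298 bp on 3L, from 24162634 to 24166931, beside a widest stringent mutant peak of 2128 bp in the rest of the 3 arms. In the relaxed mutant list the widest peaks had 6660 bp in the members and 5006 bp in the rest. For Ubx of Experiment 2 it was the peak of 3663 bp at the same place, from 24162593. For Ubx of Experiment 1 and for Abd-B it lay at another site on 3L, with 1706 bp from 22815517 to 22817222 and 3226 bp from 22815206 to 22818431. The widest members of Abd-A (3467 bp, from 20821705 to 20825171) and of Ubx + Hth (3080 bp, from 22812706 to 22815785) lay on 2L.

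Within each list members took ranks across the whole range. Peaks were ranked by the deposited score, the -log10 of the q-value, and a percentile is the rank as a share of the list, so that low percentiles are the strongest peaks. The median percentile of the members was between 45.3 for mutant Ubx and 53.7 for Abd-A. The strongest 10% of a list held 6.91% of the Abd-A members (4.23 to 11.1), beside 10.9% of its peaks in the rest, and 7.36% of the Abd-B members (5.08 to 10.6), beside 10.7%. None of the 100 strongest Abd-A peaks was a member, and 2 of those of Ubx of Experiment 1 were.

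The strongest stringent mutant Ubx peaks included members more often than those of the other lists. The strongest 10% of its list held 14 of its 80 members, or 17.5% (10.7 to 27.3), beside 9.38% (7.68 to 11.4) of its peaks in the rest, with intervals that overlap. In its relaxed list the order was the opposite, with 7.67% (5.76 to 10.1) of the members in the strongest 10%, beside 10.3% (9.50 to 11.2) in the rest, and median percentiles of 59.0 and 50.9. Its 10 strongest peaks included 3 members and its 50 strongest included 9. These regions, which hold 80 of its 1793 stringent peaks, therefore supplied the peaks at ranks 1, 2 and 3.

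The peak of rank 1 for mutant Ubx was also the strongest member of the other Experiment 2 lists. It lay on 2L from 21424918 to 21425294, with a score of 379. Ubx of Experiment 2 had a peak there from 21424895 to 21425287 with a score of 342.9 and rank 2 of 4218, and Ubx + Hth had one from 21424904 to 21425319 with a score of 405.5 and rank 2 of 7971. No list of Experiment 1 called a peak at this place at either q-value. The strongest 2L members of Ubx of Experiment 1 and of Abd-A were at another 2L site, which they shared (peak starts 21214565 and 21214592), with ranks 196 of 4830 and 378 of 5656.

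On the other arms the strongest members were mostly shared sites. On 3L, Ubx of Experiment 1 (rank 50), Abd-A (rank 102) and Ubx of Experiment 2 (rank 40) had their strongest member at the same site, which spans 22360017 to 22361858. Abd-B had its own at 22393544 to 22395964 (rank 53 of 9681), Ubx + Hth at 22358019 to 22359385 (rank 19), and mutant Ubx at 23842336 to 23842649 (score 211.9, rank 3). On 3R, Abd-B reached rank 9 at 646883 to 648838 with a score of 395.7, and Ubx of Experiment 2 had its strongest 3R member inside that interval, at 647885 to 648566, with rank 255. Ubx of Experiment 1 (rank 276, 564489 to 566162) and Abd-A (rank 208, 564377 to 566558) shared their strongest 3R site, while mutant Ubx reached rank 319 at 952672 to 952937 and Ubx + Hth rank 227 at 913392 to 913961.

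Most members of Ubx of Experiment 1 and of Abd-B had partners in the lists named with them here, as peaks elsewhere did. A partner is a peak of another list with at least 5% reciprocal overlap. Of the 173 members of Ubx of Experiment 1, 95.9% (91.9 to 98.0) had a stringent Abd-A partner, beside 94.2% in the rest and 94.2% of the whole list. Of the Abd-B members, 55.5% (50.3 to 60.6) had an Abd-A partner, beside 50.1% in the rest and 52.5% of the whole list. A stringent Ubx + Hth partner was present for 68.6% of the Abd-B members (63.5 to 73.2), above the 61.5% of the rest (60.2 to 62.7) and the 63.8% of the whole list. With relaxed partners the shares were 84.1% (80.0 to 87.6) in the members and 80.9% (79.8 to 81.9) in the rest, with intervals that overlap. Between the relaxed lists they were 68.55% and 67.9%. Members of Ubx and Ubx + Hth of Experiment 2 had Experiment 1 partners less often than the rest. With stringent Abd-B the shares were 92.4% (87.2 to 95.6) beside 97.1% (96.3 to 97.7) for Ubx. For Ubx + Hth they were 80.8% (76.3 to 84.7) beside 86.9% (85.9 to 87.9). Between relaxed lists the Abd-B shares were 82.0% beside 92.4% for Ubx and 68.3% beside 84.1% for Ubx + Hth.

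Between stringent lists, partners of mutant Ubx members were fewer, most of all in Experiment 1. Of the 80 mutant members, 76.2% (65.9 to 84.2) overlapped an Abd-B peak in this way, beside 95.3% in the rest (93.7 to 96.4) and 92.2% of the whole list. The figures for wild type Ubx of its own experiment were 81.2% (71.3 to 88.3) in the members, 90.6% in the rest and 89% of the whole list. Between relaxed lists the mutant members were below the rest by similar amounts in both experiments. The shares were 48.1% beside 69.3% with Abd-B, 47.2% beside 67.4% with Ubx of Experiment 2, and 54.2% beside 71.8% with Ubx + Hth. A partner in all 5 other stringent lists was found for 51 stringent mutant members, or 63.7% (52.8 to 73.4), beside 84.4% in the rest and 81.1% of the whole list. Seen from wild type Ubx of Experiment 2, 40.5% of the members had a mutant partner (33.2 to 48.3), beside 32.9% in the rest (31.0 to 34.8) and 34.1% of the whole list. Of the Ubx + Hth members, 44.5% (39.3 to 49.9) had a partner in Ubx of Experiment 2, beside 48.1% in the rest and 48.6% of the whole list.

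Members without a partner in any other stringent list belonged mainly to Abd-B and Ubx + Hth. There were 101 among the 353 Abd-B members, 28.6% beside 32.1% of its whole list, and 46 among the 339 members of Ubx + Hth, 13.6% beside 10.4% of its whole list. Mutant Ubx had 6 of 80, or 7.50% (3.48 to 15.4), beside 1.51% of its whole list and 0.527% in the rest (0.225 to 1.23). Ubx of Experiment 1 had 0 of 173, which allows a share of up to 1.73% when 3 peaks are taken as the limit of a count of 0, beside 0.331% of its whole list. Abd-A had 2 of 217, beside 0.619% of its whole list, and Ubx of Experiment 2 had 0 of 158, which by the same limit allows up to 1.90%, beside 0.427%.

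Merging all overlapping stringent members gave 420 sites. Of these, 154 were called in 1 list and 48 in all 6. The largest groups were 101 sites called for Abd-B alone, 72 called in every list but mutant Ubx, 47 called for Abd-B and Ubx + Hth, and 45 called for Ubx + Hth alone. Both experiments called 243 of the sites, 112 were called in Experiment 1 alone and 65 in Experiment 2 alone. With the relaxed lists also searched, 50 sites remained without any Experiment 2 peak and 38 without any Experiment 1 peak. Sites were built within these regions alone, so the site counts cannot be set beside the rest of the arms. Shares of peaks, given below, have that comparison.

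**Figure D3:**
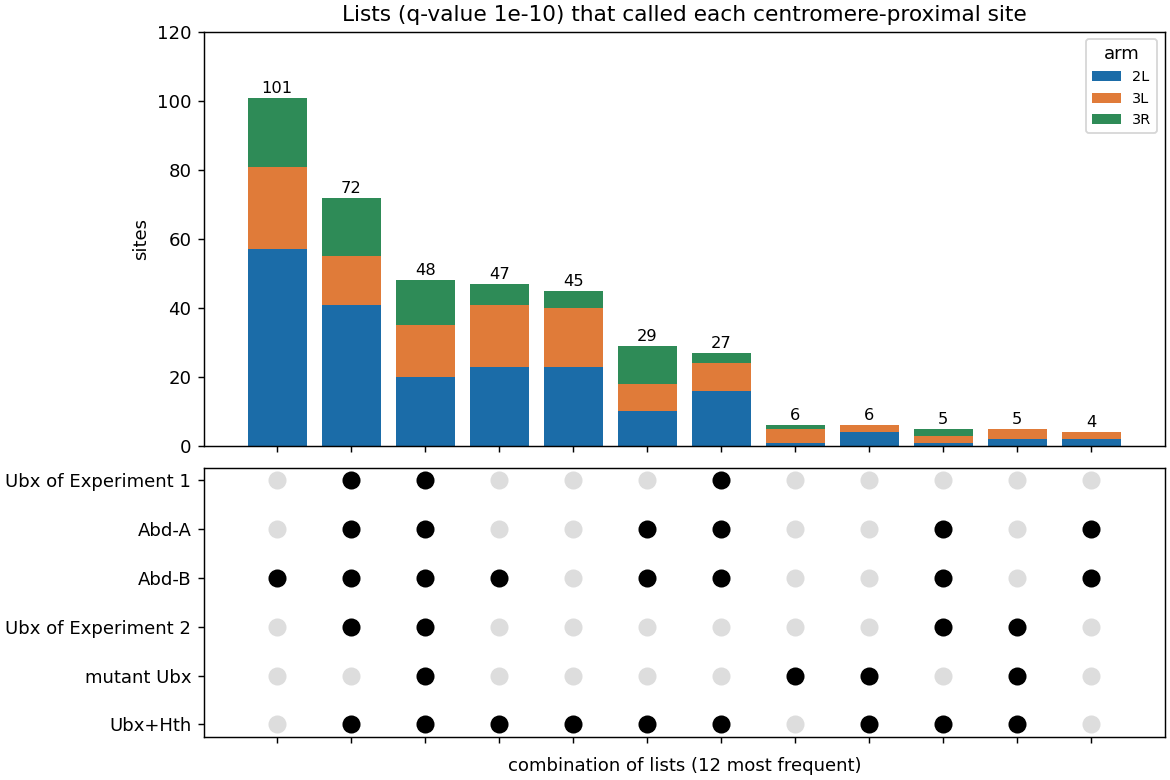
Number of centromere-proximal sites (bars, split by arm) for the 12 most frequent combinations of stringent lists, with black dots below each bar marking the lists that called a peak. The tallest bars are Abd-B alone (101 sites), every list except mutant Ubx (72) and all 6 lists (48), and the combinations that hold Experiment 2 lists alone include mutant Ubx alone (6), mutant Ubx with Ubx + Hth (6) and all 3 lists (5).

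Experiment 2 peaks with no stringent partner in Experiment 1 made up a larger share of the members than of other peaks in each of its 3 lists. For mutant Ubx these were 18 of 80 members, or 22.5% (14.7 to 32.8), beside 2.11% in the rest (1.37 to 3.23) and 4.46% of its whole list. For Ubx they were 9 of 158, or 5.70% (3.03 to 10.5), beside 1.38% (0.984 to 1.93) and 1.9% of its whole list. For Ubx + Hth they were 61 of 339, or 18.0% (14.3 to 22.4), beside 11.1% (10.3 to 12.1) and 11.4% of its whole list. The intervals of members and rest did not overlap in any of the 3 lists.

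The Experiment 1 lists went the other way. The members with no stringent partner in Experiment 2 were 6 of 173 for Ubx, 3.47% (1.60 to 7.36) beside 4.50% in the rest and 4.06% of the whole list. They were 10 of 217 for Abd-A, 4.61% (2.52 to 8.27) beside 7.17% and 6.86%, and 110 of the 353 Abd-B members, 31.2% (26.6 to 36.2) beside 38.0% and 35.7%. Members were below the rest in all 3 lists, with intervals that did not overlap for Abd-B. That separation was limited to stringent partners. With partners at either q-value the Abd-B shares were 13.9% (10.7 to 17.9) beside 17.8% (16.85 to 18.8) in the rest. Between relaxed lists they were 27.0% (23.3 to 31.1) beside 30.2% (29.2 to 31.3), so both pairs of intervals overlapped. For Abd-A at either q-value the shares were 0.922% and 0.935%. For Ubx, the protein common to both, the read length, the instrument, the depth and the number of replicates differ between the experiments. For the other lists the protein differs as well, and the parts of these in the result cannot be told apart.

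**Figure D4:**
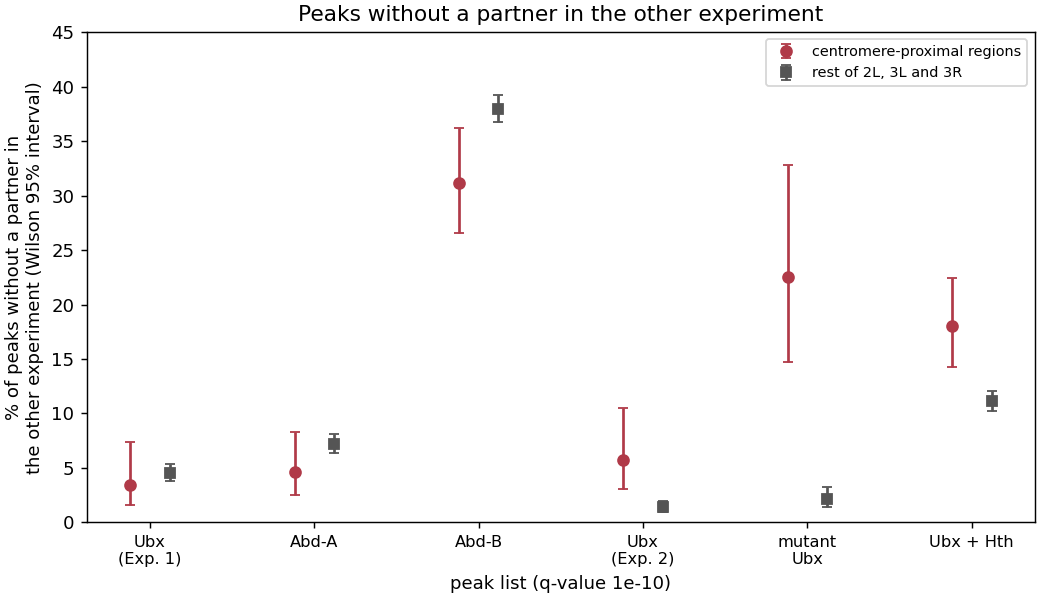
Percentage of stringent peaks of each list that have no stringent partner in the other experiment (vertical axis), in the centromere-proximal regions (circles) and in the rest of 2L, 3L and 3R (squares), with Wilson 95% intervals. The circles lie below the squares for the 3 lists of Experiment 1 and above them for the 3 lists of Experiment 2, with the largest gap for mutant Ubx (22.5% beside 2.11%).

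Searching the relaxed lists of Experiment 1 as well removed few of the mutant members. There were 17 of 80, or 21.2% (13.7 to 31.4), without an Experiment 1 partner at either q-value, beside 1.37% in the rest (0.802 to 2.33) and 3.57% of the whole list. The whole list held 64 such peaks. Besides these 17, 13 lay in the rest of 2L, 3L and 3R and the others outside these arms. For Ubx there were 7 of 158, or 4.43% (2.16 to 8.86), beside 0.251% and 0.64% of the whole list. For Ubx + Hth there were 33 of 339, or 9.73% (7.02 to 13.4), beside 3.20% and 3.54% of the whole list. Ubx, the protein common to both experiments, thus had such members too. Its whole lists held 4830 stringent and 8604 relaxed peaks in Experiment 1 and 4218 and 8672 in Experiment 2.

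The relaxed Experiment 2 lists showed the same order. Of 574 relaxed mutant members, 286 had no relaxed partner in Experiment 1, or 49.8% (45.7 to 53.9), beside 27.3% in the rest (26.1 to 28.5) and 28% of the whole list. The shares were 26.2% for Ubx + Hth, beside 12.4% in the rest and 13.5% of the whole list, and 13.6% for Ubx, beside 4.55% and 5.71%. Relaxed mutant members also had partners within Experiment 2 less often than the rest, as given above.

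The counts of these peaks differed between parts of the regions. Of the 17 mutant peaks without an Experiment 1 partner at either q-value, 10 were among the 27 members on 3L (37.0%, 21.5 to 55.8), beside 2.64% in the rest of 3L. On 2L they were 6 of 33 (18.2%, 8.61 to 34.4), beside 0.837%, and on 3R 1 of 20 (5%, 0.888 to 23.6), beside 0.737%. The member intervals of the 3 arms overlapped. Counted as sites, the portion of the 3L region beyond 23000000 held 10 such Experiment 2 sites among 50, all 10 with a mutant peak, and the portion before it held 3 among 71, none with a mutant peak. On 2L there were 18 among 139 sites beyond 21000000 and 3 among 73 before it. On 3R there was 1 among the 47 sites before 500000 and 3 among the 40 after it. Of sites called in all 6 lists, the portion of 3L nearer the centromere held 1 and the portion farther from it 14.

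Most mutant members with no Experiment 1 partner were among the strongest peaks of their list. Of the 17, 12 were in the strongest 10% of the mutant list and 9 were at rank 50 or better, with a median percentile of 2.79. The 63 mutant members with an Experiment 1 partner had a median percentile of 52.9, a best rank of 123, and 2 peaks in the strongest 10%. All 9 members among the 50 strongest mutant peaks were thus peaks that Experiment 1 lacked. In the rest of the 3 arms, 2 of the 13 such mutant peaks were at rank 50 or better and 4 were in the strongest 10%. Their median percentile was 30.9.

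Ubx + Hth did not share this ordering. Its 33 members without an Experiment 1 partner had a median percentile of 60.4 and a median width of 330 bp. Its 306 members with a partner had 48.6 and 468.5 bp. The 7 members of Ubx had a median percentile of 23.5, beside 50.2 for the 151 with a partner.

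**Figure D5:**
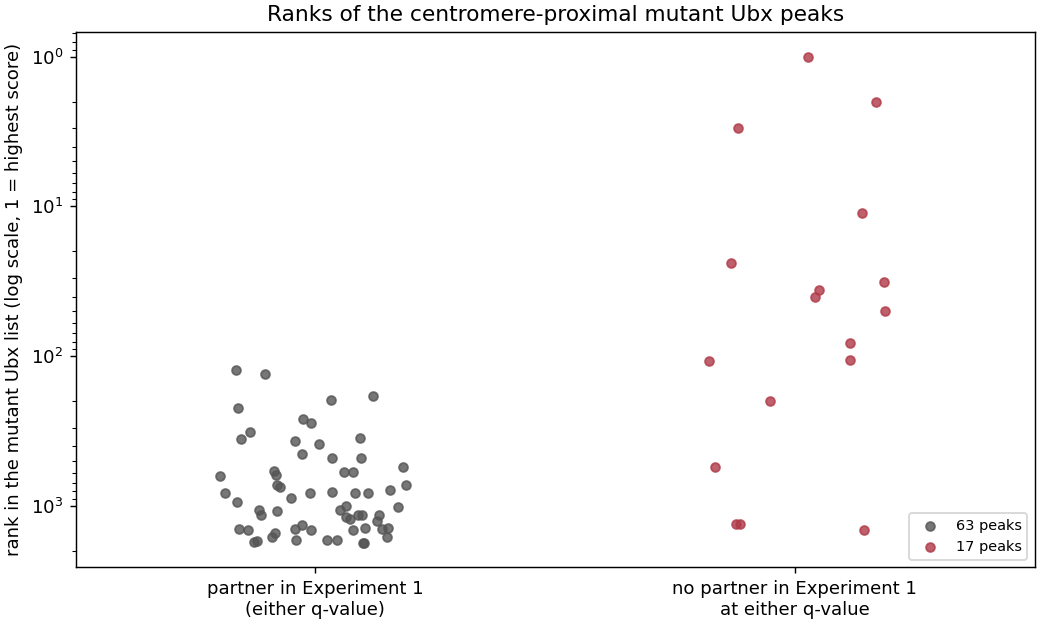
Rank of each centromere-proximal peak in the stringent mutant Ubx list (vertical log axis, rank 1 at the top), for the 63 peaks with and the 17 peaks without an Experiment 1 partner at either q-value; horizontal scatter has no meaning. The grey points start at rank 123, while 9 of the red points lie at rank 50 or better.

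All 3 Experiment 2 lists shared 5 sites at which no Experiment 1 list called a peak at either q-value. Counted as peaks, 6 of the 158 Ubx members (3.80%) and 5 of the 80 mutant members (6.25%) were of this kind. The whole lists held 20 (0.474%) and 19 (1.06%) such peaks, with 4 of each in the rest of the 3 arms, so others lay outside these arms. The first of the 5 sites is the one on 2L from 21424895 to 21425319 described above. The second, on 2L from 22413429 to 22415624, was a single mutant peak of 2196 bp with a score of 242.3 and rank 2. Ubx + Hth had 2 peaks within it, of ranks 172 and 1375, and Ubx of Experiment 2 had 2, of ranks 540 and 3376. At both of these 2L sites the mutant rank was 1 or 2 in its list.

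The other 3 sites were on 3L. From 23108629 to 23109100, the scores were 135.7 for mutant Ubx (rank 11), 110.1 for Ubx + Hth (rank 1476) and 49.85 for Ubx (rank 989). From 23564812 to 23565367, they were 93.37 for mutant Ubx (rank 32), 40.67 for Ubx + Hth (rank 4816) and 41.97 for Ubx (rank 1325). Within their own lists these mutant peaks had percentiles of 0.614 and 1.79 and those of wild type Ubx 23.5 and 31.4. Scores of different lists are not on 1 scale, because a q-value depends on depth, and the lists differ in length.

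The fifth site, from 24162593 to 24166931, holds the widest mutant peak. The mutant peak had rank 50 and a score of 81.52, and Ubx had 1 peak of 3663 bp at rank 1135. Ubx + Hth had 2 peaks there, of 244 bp (rank 7898) and 2079 bp (rank 6735), near the bottom of its list. Within 5 kb of it toward the centromere lay another pair of mutant peaks without an Experiment 1 partner, from 24167171 to 24167557 (rank 1444) and from 24167985 to 24168867 (rank 82), singled out after their values were seen. This stretch of 3L is therefore a cluster of 3 neighbouring mutant sites.

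The mutant peak of rank 3, on 3L from 23842336 to 23842649, lacked an Experiment 1 partner as well. Ubx + Hth had a peak there of rank 845, and Ubx of Experiment 2 reached it in its relaxed list alone, with a score of 52.19 and a peak of 628 bp that begins at 23842019. With the sites of ranks 1 and 2, the 3 strongest peaks of the mutant list were thus all centromere-proximal and all without an Experiment 1 peak.

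On 2L, 3 of these sites lay within 126.1 kb, from 21416856 to 21542975, a stretch chosen after its values were seen. Mutant Ubx and Ubx + Hth each had 3 stringent peaks in it and Ubx of Experiment 2 had 1. The 3 lists of Experiment 1 had 0 peaks there at either q-value. The outer mutant peaks had rank 106, at 21416904 to 21417184, and rank 36, at 21542472 to 21542844.

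Of the 38 Experiment 2 sites without any Experiment 1 peak, 21 had Ubx + Hth as the only stringent list and 17 included mutant Ubx. In 15 of the 21 no other relaxed list of Experiment 2 called a peak either. The strongest of the 21 was on 2L from 20970714 to 20971284, with rank 1375 of 7971 and a score of 115, and the weakest was on 3R from 866109 to 866324, with rank 7767. The percentiles of the 21 peaks in the Ubx + Hth list ran from 17.3 to 97.4, so none was in its strongest 10%, while the sites with mutant Ubx included the strongest of the mutant list. Of the 17, 6 had mutant Ubx as the only stringent list, 5 had mutant Ubx and Ubx + Hth, and 5 had all 3. Each of the 6 had a relaxed peak of Ubx of Experiment 2 or of Ubx + Hth, except the site on 3R from 510062 to 510280.

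Sites called in all 6 lists numbered 48. Counted as peaks instead, 51 of the 80 mutant members had a partner in all 5 other stringent lists, beside 81.1% of the whole list. For Ubx + Hth these were 48 of 339 members, 14.2% beside 16.6% of the whole list. Over the 48 sites, the median percentile of the best peak was 15.8 in the Ubx + Hth list, 19.0 in the Abd-A list, 20.7 in that of Abd-B, 24.2 and 24.7 for Ubx of Experiments 2 and 1, and 53.0 for mutant Ubx. These sites must be in the shortest list and take up most of its members, so the percentiles are not compared between lists. The site with the best mean percentile, 3.14, was on 3L from 22360017 to 22361858, where ranks were 50 for Ubx of Experiment 1, 102 in the Abd-A list, 359 in that of Abd-B, 40 for Ubx of Experiment 2, 123 for mutant Ubx and 360 for Ubx + Hth.

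The next sites by mean percentile were on all 3 arms. They were 3L from 22815206 to 22818490 (mean percentile 5.45), 3L from 22827932 to 22829145 (7.20), 2L from 21214535 to 21215498 (7.95) and 3R from 564153 to 566925 (9.55). Mutant Ubx had ranks 195, 223, 184 and 477 of 1793 there, in the same order, and Ubx of Experiment 1 had ranks 182, 71, 196 and 276 of 4830.

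Members also clustered in single windows of 100 kb. The densest on 3L, from 22800000 to 22900000, held 65 peaks of the 6 lists at 16 sites, where the median window of the 3L region held 9.5 peaks and 3 of 26 windows held none. It includes the widest members of Abd-B and Ubx of Experiment 1 and 6 sites called in all 6 lists. The densest on 3R, from 200000 to 300000, held 61 peaks at 17 sites, and that on 2L, from 20800000 to 20900000, held 52 peaks at 12 sites. The median window held 25 peaks on 3R and 19 on 2L, and no window was empty on either. These dense windows lay before 21000000 on 2L and before 23000000 on 3L, outside the portion of 3L where the mutant peaks without an Experiment 1 partner were found.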

How the data were processed

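The authors mapped paired reads of the ChIP and input libraries to BDGP release 5 with Bowtie 1.0.1, keeping uniquely mapped reads, pooled replicates, left out reads over exons of the expressed transgenes, and ran MACS2 2.1.0.20140616 against the input of Experiment 1 (SAMtools 0.1.19 and bedtools 2.19.1 per the submitters' processing notes). Each deposited list gives start, end and a score, the -log10 of the q-value, here ranked only within a list. Pileup tracks and read totals were not used here.

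Members were taken by midpoint, and region lengths run to the last peak end of any list. Overlaps were computed with numpy 2.4.6 (python 3.11.15, scipy 1.17.1, matplotlib 3.10.9) and checked against bedtools 2.31.1, with equal counts in 132 of 132 pairs of lists, and on simulated data. Peaks named are the strongest of each list per arm, sites of all 3 Experiment 2 lists without an Experiment 1 peak, 5 sites of all 6 lists with the best mean percentile, the widest of each list and the densest 100 kb per arm. Members and lists were chosen with earlier results of these data known. Gene content and sequence, planned for a release 5 genome, were not analysed here.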

Additional observations from a re-analysis of the deposited data

Results flagged for a closer look

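The share of stringent peaks without a partner in the other experiment differed in direction between the experiments. Members minus rest was -1.03 percentage points for Ubx, -2.56 for Abd-A and -6.83 for Abd-B in Experiment 1, and 4.32 for Ubx, 20.4 for mutant Ubx and 6.85 for Ubx + Hth in Experiment 2. All 3 lists of each experiment thus moved the same way. The difference between the experiments was not tested, because each condition is 1 pooled list, and lists of 1 experiment are compared with the same 3 partner lists.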

How the results depend on the processing

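No paired analysis was possible because each condition is 1 pooled list, so no replicate could be left out or blocked. Of 148 alternative values, 74 stayed within the interval of the main value, 69 moved and 5 reversed. Density ratios of members to rest were below 1 in 43 of 48 alternatives. They exceeded 1 for mutant Ubx in the relaxed lists (1.17), with farther boundaries (1.02) and on 3R (1.32), and on 3R for Abd-A (1.10) and Ubx of Experiment 2 (1.08). Lists are named here in the order Ubx of Experiment 1, Abd-A, Abd-B, Ubx of Experiment 2, mutant Ubx and Ubx + Hth. With nearer boundaries ratios moved to 0.520, 0.597, 0.579 and 0.681 (all but Abd-B and mutant Ubx). With farther boundaries they were 0.831, 0.839, 0.780, 0.848 and 0.895 (all but mutant Ubx). For the lists other than mutant Ubx they were 0.873, 0.873, 0.785, 0.874 and 0.958 on 2L, and 0.395, 0.443, 0.422, 0.427 and 0.575 on 3L. On 3R they were 0.970, 0.942 and 0.988 for Ubx of Experiment 1, Abd-B and Ubx + Hth. The relaxed list gave 0.844 for Ubx of Experiment 2.

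Median member widths in the relaxed lists were 594, 696 and 559 bp for Ubx of Experiment 1, Abd-A and Ubx of Experiment 2. The median percentile moved to 62.7 for Ubx of Experiment 1 and 53.0 for Abd-B with nearer boundaries, and to 54.2 for relaxed Abd-B.

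Shares with a partner are given for a 50% overlap, relaxed partner lists and lists cut to their 1793 strongest peaks. They were 77.5%, 100% and 80.6% for Ubx of Experiment 1 in Abd-A, 40.2%, 81.9% and 50% for Abd-B in Abd-A, and 49.0%, 84.1% and 47.1% for Abd-B in Ubx + Hth. In Experiment 2 they were 21.5%, 88.6% and 66.7% for Ubx in mutant Ubx, 42.5%, 96.2% and 57.5% for mutant Ubx in Ubx, and 31.3%, 84.1% and 54.0% for Ubx + Hth in Ubx. Mutant Ubx in Abd-B moved to 11.2% at 50% overlap and 31.2% in equal lists.

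Members exceeded the rest in the share without an Experiment 1 partner in 12 of 12 alternatives for mutant Ubx and in 11 of 12 each for the other Experiment 2 lists. The exceptions were Ubx at 50% overlap (16.5% beside 17.9%) and Ubx + Hth on 3R (8.70% beside 10.8%). For Ubx the member share moved to 13.6% in relaxed lists, 10.5% on 3L, 2.44% on 3R and 21.2% in equal lists. For mutant Ubx it moved to 49.8% in relaxed lists, 65% at 50% overlap (beside 63.2% in the rest), 38.6% and 14.3% with nearer and farther boundaries, 37.0% on 3L, 5% on 3R and 46.2% in equal lists (beside 22.0%). For Ubx + Hth it moved to 26.2% in relaxed lists, 32.1% at 50% overlap, 24% on 3L, 31.6% in equal lists, and 9.73% with relaxed partners, with either q-value and with 1 bp at either q-value. The equal lists and the searches at either q-value were chosen after seeing the data for this share. Depth cannot be read from the lists, differs between the libraries by the study's read totals, and limits which weak peaks were called.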
